A study of Bos taurus with 20 samples.

Results

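The small noncoding RNA rows comprised 79 of the 15542 rows of an RNA sequencing table from bovine embryos at day 14 of development. Membership followed annotation alone, as every row with the biotype snoRNA (64 rows), snRNA (8 rows) or misc_RNA (7 rows). These rows were taken up with earlier results of these data known. The 4 groups were vitrified TE (trophectoderm, TE, isolated from embryos that had been vitrified, 7 samples), fresh TE (TE of embryos that had not, 5 samples), vitrified embryo (2 whole embryos) and fresh embryo (6 whole embryos). All were cattle embryos recovered by flushing the uterus, per the series' design text, and the labels give the molecule as total RNA. TE is the outer epithelium of the embryo, which later forms the fetal side of the placenta. Vitrification is freezing to a glass without ice crystals. The sources used here give no stage at vitrification and no library kit. Nothing in the labels says that the numbered samples of a group came from separate embryos, so p-values measure the spread between these samples, which may be technical.

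Small noncoding RNAs work as RNA and are not translated. Small nucleolar RNAs (snoRNAs) guide chemical modification of ribosomal and other RNAs in the nucleolus, and in vertebrates most are cut out of the introns of other genes. Small nuclear RNAs (snRNAs) form, with Sm or Lsm proteins, the particles that splice pre-mRNA. The class misc_RNA gathers other structured RNAs that the annotation places in neither class. Most of these RNAs lack a poly(A) tail.

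Values are given in RPM, whole reads recovered from the deposited RPKM values and scaled to 1000000 reads of listed genes in the same library. The rows carry only Rfam family numbers as names, and no name or function is given here to a number that the files or the RefSeq table do not annotate. The RefSeq table (assembly ARS-UCD2.0) allowed a link through neighbouring genes. It held a small RNA between the same neighbours for 47 of the 55 narrow rows defined below, and in 36 cases of equal length. Of these, RF00024 lies between ACTRT3 and MECOM, where RefSeq has TERC, the RNA template of telomerase, at a length of 442 bases against 430 in the deposited table. RF00030 lies between SIT1 and CCDC107, where RefSeq has RMRP, the RNA of the nuclease RNase MRP, at 281 against 278 bases.

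The rows were of different kinds. A narrow row spans 105 to 1570 bases, with a median of 148, and there were 55 of these (48 snoRNA, 2 snRNA, 5 misc_RNA). The other 24 rows (16 snoRNA, 6 snRNA, 2 misc_RNA) span 9.655 kb to 127.922 Mb, 22 of them over 1 Mb, so a row of this kind holds far more than a single small RNA. For a wide row, the genomic copy behind its reads cannot be told. Because RPKM divides by the span, the deposited value of the wide rows never exceeded 0.0699, close to the offset of 0.01 present in every value. RF00100 had 2263 reads over the 20 libraries and a deposited value of at most 0.0104. RF00012, a narrow row, had 2274 reads and a deposited value of up to 311.

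**Figure D1:**
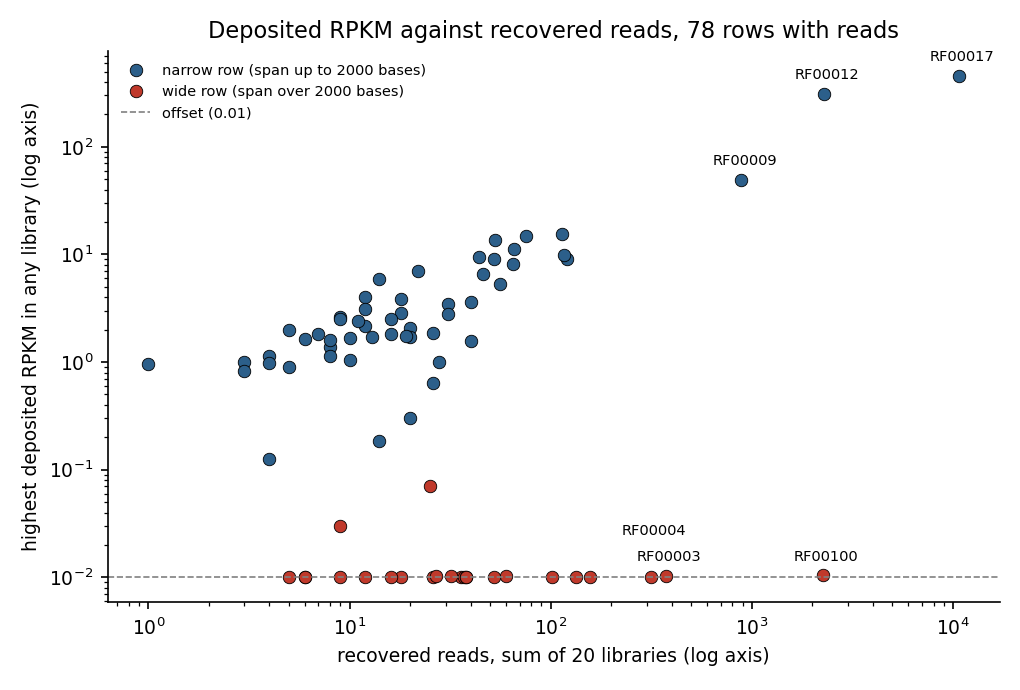
Highest deposited RPKM in any library (log axis) against recovered reads summed over 20 libraries (log axis), for the 78 rows with at least 1 read. Narrow rows (blue) climb with their reads, whereas wide rows (red) lie at or near the offset of 0.01 (dashed line), RF00100 with its 2263 reads included.

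The libraries held 6.01 to 14.5 M reads (M, 1000000), of which 2.03 to 8.73 M fell in listed genes. Listed genes took 57.7 to 59.7% of reads in vitrified TE, 33.8 to 40.3% in fresh TE, 60.5 and 63.9% in vitrified embryos and 57.5 to 61.0% in fresh embryos. Fresh TE therefore stood apart from the other groups before any gene was compared, and a read weighs more in it, at 0.323 to 0.493 RPM against 0.181 to 0.223 RPM in vitrified TE. Mitochondrial messenger RNA made up 6.29 to 9.87% of listed-gene reads in vitrified TE, 1.09 to 1.41% in fresh TE, 5.03 and 3.01% in vitrified embryos and 3.28 to 5.12% in fresh embryos. Fresh TE libraries 1 and 2, and likewise 3 and 4, were nearly alike, with a chi-square per degree of freedom of 1.88 and 1.48, against 11.9 to 22.6 for the other pairs of that group. They differed by more than sampling noise and were kept as separate samples. For sums, counts of calls and some single rows, results on fresh TE are also given with each such pair averaged. All other p-values on fresh TE treat its 5 samples as separate. The 10 markers listed for TE were all found and summed to 17106 to 24684 RPM in vitrified TE, 24831 to 30448 in fresh TE, 19229 and 21848 in vitrified embryos and 11164 to 16217 in fresh embryos. The 3 of 6 listed blood markers that were found summed to 11.1 to 20.7 RPM in vitrified TE, 58.6 to 87.9 in fresh TE, 9.25 and 15.1 in vitrified embryos and 7.90 to 14.3 in fresh embryos. In fresh TE, 1 of these 3 blood markers reached a median of 10 reads, against 2 in vitrified TE and 3 in both kinds of embryo. Epiblast markers summed to 4.35 to 14.1 RPM in vitrified TE and 0.444 to 3.23 in fresh TE, where LIN28B was at 0, and to 5.10 and 189 RPM in vitrified embryos and 13.1 to 68.9 in fresh embryos. Hypoblast markers (5 of 6 found) summed to 1880 to 4031 RPM in vitrified TE and 777 to 1543 in fresh TE, and to 600 and 2158 RPM in vitrified embryos and 1836 to 3062 in fresh embryos. In fresh TE, 1 of these 5 reached a median of 10 reads, against all 5 in vitrified TE. Uterine markers (2 of 5 found) summed to 14.1 to 36.4 RPM in vitrified TE and 14.9 to 30.9 in fresh TE, and to 8.91 and 17.8 RPM in vitrified embryos and 15.0 to 52.4 in fresh embryos. The part of library make-up and of other cell types in the results on fresh TE was not tested.

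Reads of the small RNA rows were few. They summed to 19075 over the 20 libraries, and a library held 348 to 2289 of them, in 31 to 56 of the 79 rows. In 67 rows the sum over all libraries was under 100 reads, 4 rows had a read in every library, and RF00415 had no read in any library. A single row, RF00017, took most of them in 3 of the 4 groups. It made up 62.3% ± 8.33 of small RNA reads in vitrified TE (SD, n = 7), 45.3% ± 3.55 in fresh TE (n = 5), 67.2 and 82.0% in the vitrified embryos and 67.2% ± 8.85 in fresh embryos (n = 6).

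The sum of the small RNA rows was highest in fresh TE. It was 103 to 200 RPM in vitrified TE, with a median of 152, against 887, 717, 740, 729 and 366 RPM in the fresh TE samples. In whole embryos it was 68.2 and 127 RPM after vitrification, against 68.6 to 131 RPM in fresh embryos, with a median of 111. Every vitrified TE sample and every fresh embryo lay below every fresh TE sample, and fresh TE sample 5, the lowest of its group, was still the nearest to the others. The vitrified TE mean was 0.215 of the fresh TE mean, and the fresh embryo mean was 0.153 of it. Vitrified embryos stood at 0.924 of the fresh embryo mean and 0.658 of the vitrified TE mean, with overlap in both cases. Scaled to all reads of the library in place of listed-gene reads, the vitrified TE mean was 0.335 and the fresh embryo mean 0.241 of the fresh TE mean. With the near copies in fresh TE averaged, the ratios were 0.234 and 0.167. In bulk samples such as these, fewer cells of a type and less RNA per cell cannot be told apart. Sums over rows chosen with results known are given as descriptions, without a test.

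The 3 biotypes had the same order of groups at the top but not the same spread. Reads of the 8 snRNA rows averaged 3.80 ± 1.54 RPM in vitrified TE and 47.3 ± 20.03 RPM in fresh TE, a ratio of 0.0803, and 3.28 ± 3.55 RPM in fresh embryos. Without fresh embryo sample 2, which held 10.3 RPM, the fresh embryo mean was 1.89 ± 1.04 RPM (n = 5), or 0.0399 of fresh TE. The 64 snoRNA rows averaged 31.7 ± 14.1 RPM in vitrified TE and 185 ± 64.7 RPM in fresh TE, a ratio of 0.171, and 16.4 ± 4.55 RPM in fresh embryos. The 7 misc_RNA rows averaged 113 ± 29.2 RPM in vitrified TE and 455 ± 113 RPM in fresh TE, a ratio of 0.247, and 85.9 ± 18.9 RPM in fresh embryos. In the vitrified embryos the sums were 1.18 and 4.02 RPM for snRNA, 10.8 and 9.08 RPM for snoRNA, and 56.3 and 114 RPM for misc_RNA. For each biotype, all vitrified TE samples and all fresh embryos lay below all fresh TE samples. The snoRNA sum of both vitrified embryos also lay below all 7 vitrified TE samples, which held 16.6 to 53.3 RPM.

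**Figure D2:**
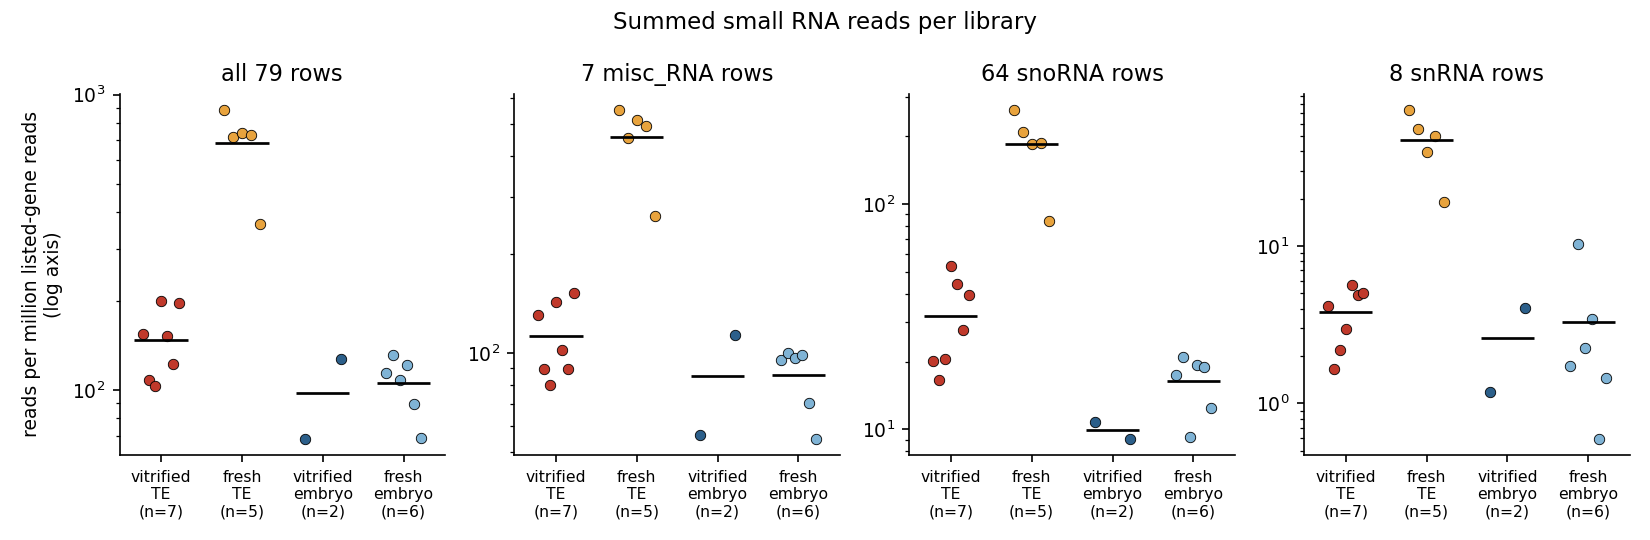
Summed small RNA reads in RPM (log axis) in each library, for all 79 rows and by biotype. Points are libraries and the bar is the group mean. Fresh TE lies above the other groups in every panel, at 366 to 887 RPM for all rows against 103 to 200 RPM in vitrified TE.

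The snoRNA sum rested on RF00012 in the TE comparison. Without it the other 63 snoRNA rows averaged 23.8 ± 9.35 RPM in vitrified TE and 48.3 ± 18.9 RPM in fresh TE, a ratio of 0.493, and the groups overlapped. In fresh embryos, those rows averaged 10.2 ± 2.56 RPM, 0.212 of fresh TE, without overlap. For misc_RNA the leading row worked the other way. Without RF00017 the ratio of vitrified to fresh TE was 0.142, and that of fresh embryo to fresh TE was 0.0998. The 73 rows outside the 6 with the highest mean summed to 15.0 to 38.7 RPM in vitrified TE and 26.1 to 88.8 RPM in fresh TE. These ranges overlapped, and the mean of vitrified TE was 0.456 of that of fresh TE.

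The 6 rows with the highest mean were examined singly. RF00017, a misc_RNA row of 310 bases between KCTD7 and RABGEF1 (UMD3.1, chr25:28507375-28507685, minus strand, in no listed gene), had 64.4 to 123 RPM in vitrified TE with a median of 75.3, against 372, 305, 326, 351 and 183 RPM in fresh TE. In vitrified embryos it had 45.9 and 104 RPM, against 42.1 to 89.1 RPM in fresh embryos with a median of 78.05. All fresh TE samples were above all other samples. Its limma log2 fold change was -1.74 in vitrified against fresh TE (SE 0.23, adjusted p = 2.6e-07) and -2.11 in fresh embryo against fresh TE (SE 0.23, adjusted p = 4.2e-08).

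RF00012 was the snoRNA row with the most reads. It spans 222 bases inside SNX6, on the same strand (chr21:45436286-45436508, minus strand). SNX6 encodes a sorting nexin, a membrane-binding protein of endosomes. The row had 2.40 to 17.9 RPM in vitrified TE with a median of 7.48, against 190, 153, 142, 137 and 63.4 RPM in fresh TE. It had 2.35 and 1.22 RPM in vitrified embryos, against 2.10 to 11.7 RPM in fresh embryos with a median of 5.97. The lowest fresh TE sample held more than 3 times the highest value of any other sample. The log2 fold change was -4.21 in vitrified against fresh TE (SE 0.45, adjusted p = 7.0e-08), the largest among the 13 tested rows, and -4.49 in fresh embryo against fresh TE (SE 0.47, adjusted p = 8.5e-08).

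RF00100, a wide misc_RNA row on chromosome 1, had 6.39 to 16.2 RPM in vitrified TE with a median of 10.3, against 152, 114, 132, 107 and 60.0 RPM in fresh TE. In vitrified embryos it had 6.47 and 4.37 RPM, against 6.31 to 22.2 RPM in fresh embryos with a median of 8.90. The TE groups did not overlap. It fell by 3.37 on the log2 scale in vitrified against fresh TE (SE 0.27, adjusted p = 6.7e-11) and by 3.40 in fresh embryo against fresh TE (SE 0.28, adjusted p = 3.2e-10). On the deposited RPKM scale with a pseudocount of 1, where its value never exceeded 0.0104, neither of these calls was made.

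RF00009, a misc_RNA row of 416 bases between BCHE and SLITRK3 (chr1:102829716-102830132, plus strand), had 2.72 to 16.9 RPM in vitrified TE with a median of 8.40, against 24.0, 27.1, 52.3, 33.8 and 19.0 RPM in fresh TE. It had 3.14 and 3.84 RPM in vitrified embryos, against 0.703 to 5.99 RPM in fresh embryos with a median of 3.24. All samples of the other groups lay below fresh TE. The log2 fold change was -1.90 in vitrified against fresh TE (SE 0.40, adjusted p = 1.9e-04) and -3.19 in fresh embryo against fresh TE (SE 0.41, adjusted p = 5.1e-07).

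Both tested snRNA rows were wide. RF00003, on chromosome 19, had 0.363 to 3.38 RPM in vitrified TE with a median of 0.640, against 41.7, 28.1, 13.9, 22.5 and 7.08 RPM in fresh TE. In embryos it had 0 and 2.10 RPM after vitrification, against 0.229 to 2.82 RPM in fresh ones with a median of 0.745. The row fell by 3.65 in vitrified against fresh TE (SE 0.50, adjusted p = 8.2e-07), and no other sample reached the lowest of fresh TE. RF00004, on chromosome 7, had 0.446 to 1.88 RPM in vitrified TE with a median of 1.42, against 19.5, 23.2, 17.4, 21.5 and 7.45 RPM in fresh TE. It had 0.588 and 1.57 RPM in vitrified embryos, against 0 to 3.42 RPM in fresh embryos with a median of 0.566. It fell by 3.40 in vitrified against fresh TE (SE 0.40, adjusted p = 2.7e-08), again with no overlap. In fresh embryo against fresh TE, RF00003 fell by 3.85 (SE 0.52, adjusted p = 9.9e-07) and RF00004 fell by 3.89 (SE 0.41, adjusted p = 1.0e-08). Neither call was made on the deposited RPKM scale in any of these comparisons.

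**Figure D3:**
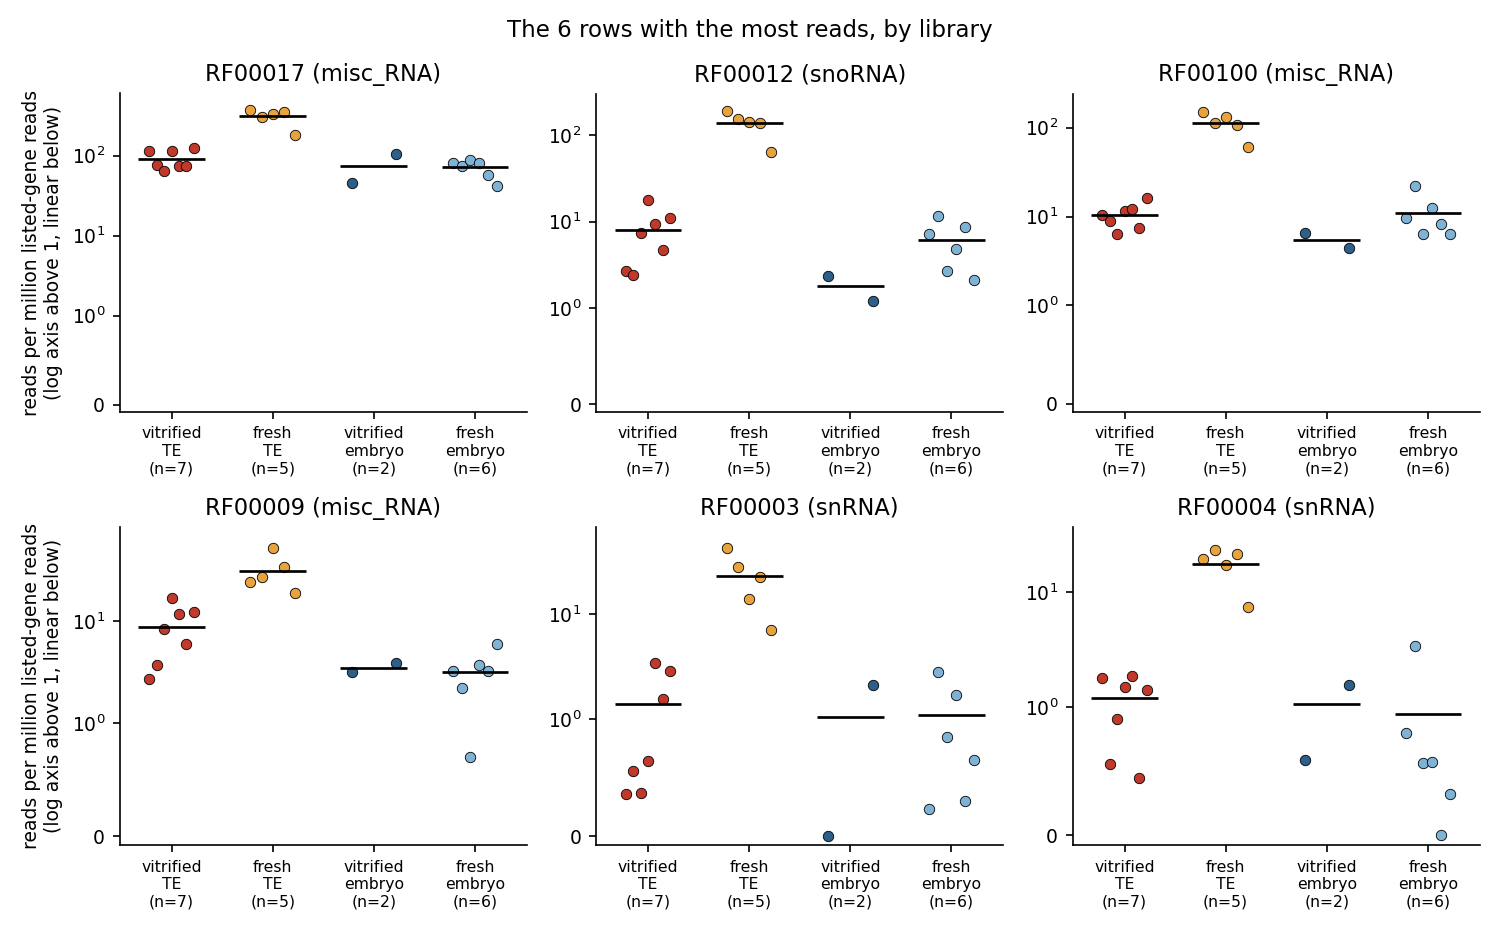
RPM in each library for the 6 rows with the highest mean (log axis above 1, linear below). Points are libraries and the bar is the group mean. In all 6 panels the 5 fresh TE samples lie above every other sample.

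Reads of these rows were also set against RF00017 of the same library as another denominator, one that itself fell by 1.74 in vitrified TE. RF00012 had 8.71 ± 5.03 reads per 100 reads of RF00017 in vitrified TE, with a highest value of 15.8, and 43.7 ± 7.03 in fresh TE, with a lowest value of 34.7. RF00100 had 11.4 ± 2.52 per 100 in vitrified TE and 36.4 ± 4.66 in fresh TE, again without overlap. In fresh embryos these ratios were 8.86 ± 5.29 and 15.5 ± 7.503. RF00009, by contrast, had 9.88 ± 5.10 per 100 in vitrified TE and 10.3 ± 3.56 in fresh TE, and the ranges overlapped. RF00003 had 1.59 ± 1.52 per 100 in vitrified TE and 6.995 ± 3.17 in fresh TE, with overlap (highest 4.55 and lowest 3.88). RF00004 had 1.33 ± 0.635 in vitrified TE and 5.68 ± 1.29 in fresh TE, without overlap. These ratios show unequal change between rows and were not tested.

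Across all 79 rows, every vitrified TE sample lay below every fresh TE sample in 12 rows, or 15.2%, against 7.93% of all rows of the table. In no row did every vitrified TE sample lie above, against 24.6% of all rows. The 12 were 5 snRNA rows (RF00003, RF00004, RF00015, RF00618 and RF00619), 3 misc_RNA rows (RF00009, RF00017 and RF00100) and 4 snoRNA rows (RF00012, RF00091, RF00191 and RF01225). Some rest on single reads, which weigh more in fresh TE. RF00091 had 2 reads (0.365 RPM) in vitrified TE sample 3 and 1 read (0.373 RPM) in fresh TE sample 5. RF00618 had 1 read in fresh TE sample 5 and 1 in vitrified TE samples 4, 5 and 7. RF01225 had 1 or 2 reads in each fresh TE sample. RF00015, the third snRNA row by mean, had a read in 1 of 7 vitrified TE samples (0.213 RPM), against 3.996, 0.986, 3.23, 1.02 and 1.12 RPM in fresh TE. RF00191, a narrow snoRNA row between BLMH and CPD, had 0 to 1.012 RPM in vitrified TE and averaged 3.18 ± 0.984 RPM in fresh TE.

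Only 13 rows had at least 10 reads in at least 2 libraries and could be tested in the fit across 10599 genes, 8 of them snoRNA, 2 snRNA and 3 misc_RNA. RF00096 passed this filter through fresh TE libraries alone. RF00231 (3 fresh TE libraries and 1 fresh embryo) and RF00401 (1 fresh TE and 1 vitrified TE library) also needed fresh TE to pass. The comparison of vitrified with fresh TE asks how transcripts of this layer differ at day 14 between embryos that were vitrified and embryos that were not. Of the 13, 10 fell and none rose in vitrified TE, against 15.5% of all tested genes that fell and 51.8% that rose. Without RF00096, the row that passed the filter through fresh TE alone, 9 of 12 fell. RF00231, which also needed fresh TE to pass, is among these 9, so the count is a description. The median log2 fold change of the 13 was -1.62, against 0.62 over all tested genes. That median of all genes was 0.18 on the RPKM scale, 0.20 with median-ratio factors, -0.07 with quantile normalization and 1.02 on the whole-library scale. Of the calls over all genes 77.0% were higher, a share of 47.9 to 91.4% under those scalings, while 4, 10, 13 and 9 of the 13 small RNA rows fell and none rose. A filter on reads favours rows that are high in some group, so this count describes the 13 tested rows and not all 79.

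Beside the 6 leading rows, 4 snoRNA rows passed as lower in vitrified TE. RF00096, between CDV3 and TMEM108, had 0 to 1.71 RPM in vitrified TE with a median of 0.752, against 4.88, 5.92, 2.91, 2.73 and 0.745 RPM in fresh TE. Its log2 fold change was -1.62 (SE 0.38, adjusted p = 5.4e-04), with fresh TE sample 5 inside the vitrified range. As it entered the fit only through the group where it is high, this value is a description. RF01210, a wide row on chromosome 2, had 0.405 to 4.48 RPM in vitrified TE with a median of 0.907, against 7.99, 6.41, 3.23, 5.12 and 2.98 RPM in fresh TE. Its groups overlapped, and it fell by 1.502 (SE 0.41, adjusted p = 0.0021).

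The remaining snoRNA rows were less firm. RF00231, between SYNE3 and GLRX5, had 0.183 to 1.92 RPM in vitrified TE with a median of 0.726, against 5.77, 3.94, 4.52, 6.14 and 0 RPM in fresh TE. It fell by 1.54 (SE 0.52, adjusted p = 0.011), but by 1.09 with adjusted p = 0.13 when the near copies in fresh TE were averaged. As it needed fresh TE libraries to pass the filter, this value is a description. RF00406, a wide row on chromosome 2, had 0.670 to 3.84 RPM in vitrified TE with a median of 1.48, against 4.44, 2.96, 1.94, 3.07 and 3.73 RPM in fresh TE. It fell by 0.84 (SE 0.36, adjusted p = 0.04), and 13 of 32 alternative settings did not make this call, among them those that left out vitrified TE sample 2, 3, 6 or 7, or fresh TE sample 1, 2, 4 or 5. With the near copies in fresh TE averaged it fell by 0.89 with limma adjusted p = 0.073.

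RF00432, RF00045 and RF00401 did not pass in vitrified against fresh TE. RF00432, a snoRNA row between DUSP26 and ZNF703, averaged 1.90 ± 1.34 RPM in vitrified TE and 2.43 ± 1.41 RPM in fresh TE, with a log2 fold change of -0.33 (SE 0.42, adjusted p = 0.50). RF00045, inside TBCD on the same strand, averaged 1.81 ± 0.9754 RPM in vitrified TE and 2.08 ± 1.07 RPM in fresh TE, with a log2 fold change of -0.14 (SE 0.40, adjusted p = 0.77). The sign of both turned with the scaling, and quantile normalization called both lower. RF00401, a wide row, averaged 0.9745 ± 0.681 RPM in vitrified TE and 2.25 ± 2.02 RPM in fresh TE, with a log2 fold change of -0.62 (SE 0.45, adjusted p = 0.23). Without fresh TE sample 2, which had no read of RF00401, the fold change was -1.13 and passed the threshold (adjusted p = 0.016). As RF00401 needed a fresh TE library to pass the filter on reads, this value is a description. Among the 20 rows with the highest mean, RF00424 and RF00554 also differed little. RF00424 averaged 0.936 ± 0.571 RPM in vitrified TE and 1.11 ± 0.883 RPM in fresh TE. RF00554 averaged 1.09 ± 0.722 RPM in vitrified TE and 0.913 ± 0.747 RPM in fresh TE.

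When the filter was dropped and all 79 rows entered the limma fit, 27 fell and 3 rose in vitrified against fresh TE, against 18.4% and 37.5% of all rows. The 27 were 18 of 64 snoRNA, 6 of 8 snRNA and 3 of 7 misc_RNA rows. The 3 that rose were the snoRNA rows RF00092, RF00263 and RF00394, which were named after their values were seen. RF00394, inside EIF4A2, had 0.365 to 2.23 RPM in vitrified TE with a median of 1.13, against 0.444, 0, 0.323, 1.02 and 0 RPM in fresh TE. It had 42 reads in all of vitrified TE and 5 in all of fresh TE, so its call rests on few reads. The same limit holds for rows that fell only without the filter. The 66 rows outside the filter together held 607 reads in all of vitrified TE and 457 in all of fresh TE, where a read weighs more.

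**Figure D4:**
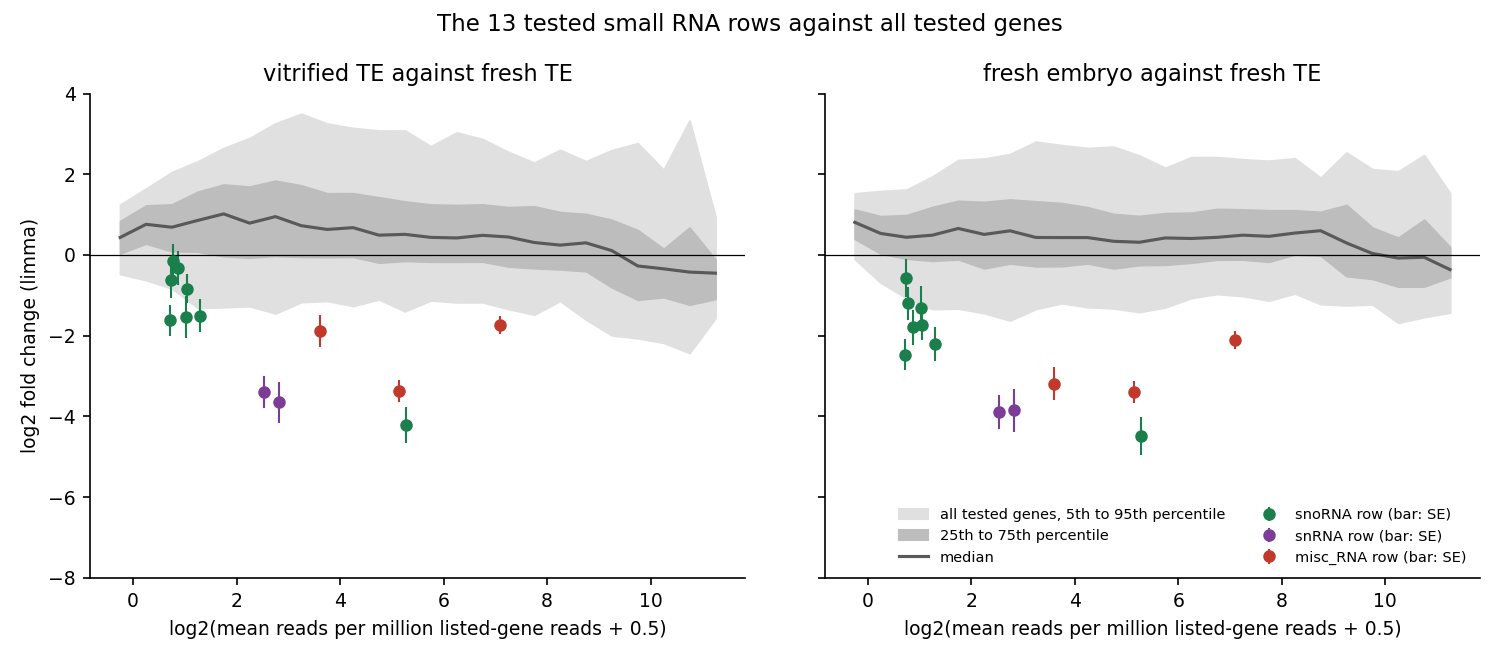
Limma log2 fold change against mean level on the log2(RPM + 0.5) scale for the 13 tested small RNA rows, coloured by biotype with their SE, over the 5th to 95th percentile of all tested genes (grey). The 6 rows with the highest mean lie between -1.74 and -4.21 in vitrified against fresh TE and between -2.11 and -4.49 in fresh embryo against fresh TE.

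The comparison of fresh whole embryos with fresh TE sets the embryo with all its parts beside the outer layer. Library make-up also differed between these groups, as given above, and the 2 cannot be told apart here. Here 12 of the 13 tested rows fell and none rose, against 16.5% of tested genes that fell and 44.6% that rose. Without RF00096, 11 of 12 fell, with RF00231, which needed fresh TE to pass the filter, still among the 11. The median log2 fold change of the 13 was -2.22, against 0.44 over all tested genes. Of the calls over all genes 73.0% were higher, a share of 48.8 to 91.2% under the other scalings, where 5 to 13 of the 13 rows fell and none rose. Without the filter, 33 of the 79 rows fell and none rose, against 18.7% of all rows that fell. Calls among the 66 rows outside the filter rest on few reads, 277 in all of the fresh embryos and 457 in all of fresh TE. This comparison and that of vitrified with fresh TE share the fresh TE samples, so their results are not independent. Over all 79 rows, every fresh embryo lay below every fresh TE sample in 13 rows, against 8.07% of all rows, and every fresh embryo lay above in none, against 18.4%. RF01225 and RF00618, which rest on single reads, are among the 13. So is RF01294, with 1 read in fresh TE sample 3 (0.323 RPM) and 2 in fresh embryo sample 3 (0.281 RPM).

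Beside the 6 leading rows, several snoRNA rows fell in fresh embryos, among them RF00432, which did not pass between the TE groups. RF00432 had 0 to 0.403 RPM in fresh embryos with a median of 0.310, against 3.996, 3.45, 2.26, 2.05 and 0.373 RPM in fresh TE. It fell by 1.79 (SE 0.43, adjusted p = 8.4e-04), and the groups overlapped through fresh TE sample 5. RF00096 had 0 to 0.297 RPM in fresh embryos, below the lowest fresh TE value of 0.745 RPM, with a log2 fold change of -2.47 (SE 0.39, adjusted p = 6.2e-06), again as a description. That lowest value is 2 reads in fresh TE sample 5, and fresh embryo sample 5 also had 2 reads. RF00406 fell by 1.73 (SE 0.37, adjusted p = 2.4e-04) and RF01210 by 2.22 (SE 0.42, adjusted p = 6.3e-05), both without overlap.

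The calls of RF00045 and RF00231 in fresh embryos were fragile. RF00045 fell by 1.20 (SE 0.41, adjusted p = 0.014), and by 0.98 with adjusted p = 0.095 when the near copies in fresh TE were averaged. RF00231 had 0.162 to 2.57 RPM in fresh embryos and fell by 1.302 (SE 0.54, adjusted p = 0.038), again as a description. With the near copies averaged it fell by 0.85 with adjusted p = 0.26, and leaving out any of fresh TE samples 1 to 4 or fresh embryo sample 1, 2 or 6 also ended the call. RF00401 did not pass, at -0.57 (SE 0.47, adjusted p = 0.30), but did without fresh TE sample 2, at -1.08 (adjusted p = 0.028), again as a description.

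In whole embryos, no tested row passed the threshold between vitrified and fresh samples. Of the 13 rows, 2 had an unadjusted limma p under 0.05, and quantile normalization called 1 of them (RF00100), whereas voom weights called 0. Over all tested genes, 17.1% rose and 4.31% fell. Without the filter none of the 79 rows passed, against 2.66% of all rows that fell. With 2 vitrified embryos the intervals were wide. RF00017 differed by 0.0021 on the log2 scale (95% interval -0.65 to 0.65), RF00009 by 0.28 (-0.87 to 1.42) and RF00003 by -0.26 (-1.72 to 1.19). RF00012 was at -1.38 (-2.70 to -0.06, adjusted p = 0.13) and RF00100 at -0.82 (-1.61 to -0.04, adjusted p = 0.13). Over all 79 rows, both vitrified embryos lay above all fresh embryos in 5 rows, against 20.5% of all rows, and below them in none, against 5.73%.

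Vitrified embryos and vitrified TE did not part by the test either. None of the 13 rows passed, 4 had an unadjusted p under 0.05 (RF00012, RF00045, RF00100 and RF01210), and 2.4% of all tested genes rose and 1.61% fell. RF00012 was at -1.66 (SE 0.62, adjusted p = 0.11) and RF01210 at -1.49 (SE 0.56, adjusted p = 0.10), and voom weights and all other settings called 0 rows here. Without the filter 0 of the 79 rows passed, against 0.798% of all rows that fell. Both vitrified embryos lay below all vitrified TE samples in 4 rows (RF00012, RF00394, RF00409 and RF01210), against 6.06% of all rows, and above them in none, against 12%.

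The difference of vitrified from fresh samples, called the vitrification effect here, was compared between whole embryo and TE by an interaction term. For 7 of the 13 rows the effect was higher in whole embryos than in TE, against 8.57% of all tested genes, and for none was it lower, against 21.5%. Without RF00096, the count was 6 of 12. The term uses the same fresh TE samples as the comparisons above, so its results are not independent of them. Fresh TE also differed from the other groups in library make-up, which cannot be told apart from vitrification here. The difference of effects, on the log2 scale, was 3.78 for RF00004 (SE 0.68, adjusted p = 1.5e-04), 3.39 for RF00003 (SE 0.87, adjusted p = 0.0046) and 2.83 for RF00012 (SE 0.78, adjusted p = 0.0092). It was 2.55 for RF00100 (SE 0.47, adjusted p = 2.2e-04), 2.17 for RF00009 (SE 0.68, adjusted p = 0.018), 1.94 for RF00096 (SE 0.65, adjusted p = 0.026) and 1.75 for RF00017 (SE 0.39, adjusted p = 0.0014). Without the filter the effect was higher in 13 of the 79 rows, against 7.3% of all rows. The 66 rows outside the filter held 76 reads in all of the vitrified embryos. The count rests on 2 vitrified embryos and was 4 without sample 1, where RF00009, RF00012 and RF00096 did not pass, and 3 without sample 2, where RF00003, RF00009, RF00017 and RF00096 did not. RF00096 also did not pass without fresh TE sample 2, with the near copies averaged (adjusted p = 0.076), with the replicate block (0.070), or on the RPKM and whole-library scales. RF00003 did not pass with voom weights (adjusted p = 0.091) or a pseudocount of 0.1, RF00012 not with voom weights (0.073), and RF00009 not on the RPKM and whole-library scales. RF00003, RF00004 and RF00100 did not pass on the RPKM scale.

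The snoRNA rows inside other genes allowed the small RNA to be set beside the gene around it. Of the 48 narrow snoRNA rows, 23 lie within a listed gene on the same strand. Whether reads in such a row were also counted for the surrounding gene is not given in the sources used here. In vitrified against fresh TE, the group mean of the snoRNA row was higher in 10 and lower in 12 of the 23, and that of the surrounding gene was higher in 17 and lower in 6, with the same sign in 11. One snoRNA row had the same mean in both groups. In 6 rows with at least 20 reads over all libraries, the surrounding gene had the higher mean in vitrified TE in all 6 and the snoRNA row in 2. In fresh embryo against fresh TE, all 6 snoRNA rows had the lower mean and all 6 surrounding genes the higher one. RF01296 reached 20 reads through the 16 it had in fresh TE. Among the 5 rows with at least 20 reads outside fresh TE, 3 had the lower mean in vitrified TE and 5 in fresh embryos, and all 5 surrounding genes had the higher mean in both comparisons. With other scalings TBCD reached -0.23 and EIF4A2 -0.28 in fresh embryo against fresh TE, so the direction of these genes is not settled.

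SNX6, around RF00012, averaged 107 ± 20.9 RPM in vitrified TE and 37.8 ± 11.6 RPM in fresh TE, and rose by 1.53 (SE 0.24, adjusted p = 6.2e-06) where the snoRNA row fell by 4.21. PHB2 encodes prohibitin 2, a protein of the inner mitochondrial membrane, and holds RF01294. It averaged 66.8 ± 24.6 RPM in vitrified TE and 3.29 ± 1.97 RPM in fresh TE and rose by 4.27 (SE 0.42, adjusted p = 3.5e-08), while RF01294 averaged 0.303 RPM in vitrified TE and 2.20 RPM in fresh TE. NCAPD2, a condensin subunit that compacts chromosomes in mitosis, averaged 68.4 ± 8.23 RPM in vitrified TE and 21.1 ± 5.10 RPM in fresh TE and rose by 1.70 (SE 0.16, adjusted p = 9.4e-10), while RF01296 inside it averaged 0.0289 RPM in vitrified TE and 1.28 RPM in fresh TE.

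TBCD, a tubulin folding cofactor around RF00045, rose by 1.29 (SE 0.22, adjusted p = 1.0e-05). RPS2, a ribosomal protein gene around RF00264, rose by 0.95 (SE 0.11, adjusted p = 2.9e-08). EIF4A2, an RNA helicase of translation initiation, did not pass (0.15, SE 0.24, adjusted p = 0.59), and under 4 other scalings it ran from -0.33 to 0.78 and passed in 2. The 5 genes that rose kept that direction and call under all 4 other scalings. In fresh embryo against fresh TE, SNX6 rose by 1.70 (SE 0.25, adjusted p = 3.3e-06), PHB2 by 4.30 (SE 0.43, adjusted p = 9.4e-08), NCAPD2 by 0.84 (SE 0.17, adjusted p = 1.3e-04) and RPS2 by 0.65 (SE 0.12, adjusted p = 2.7e-05), while TBCD (0.20) and EIF4A2 (0.07) did not pass. RF01294, RF01296 and RF00264, with 46, 20 and 26 reads in all, were not tested, since none had at least 10 reads in at least 2 libraries.

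**Figure D5:**
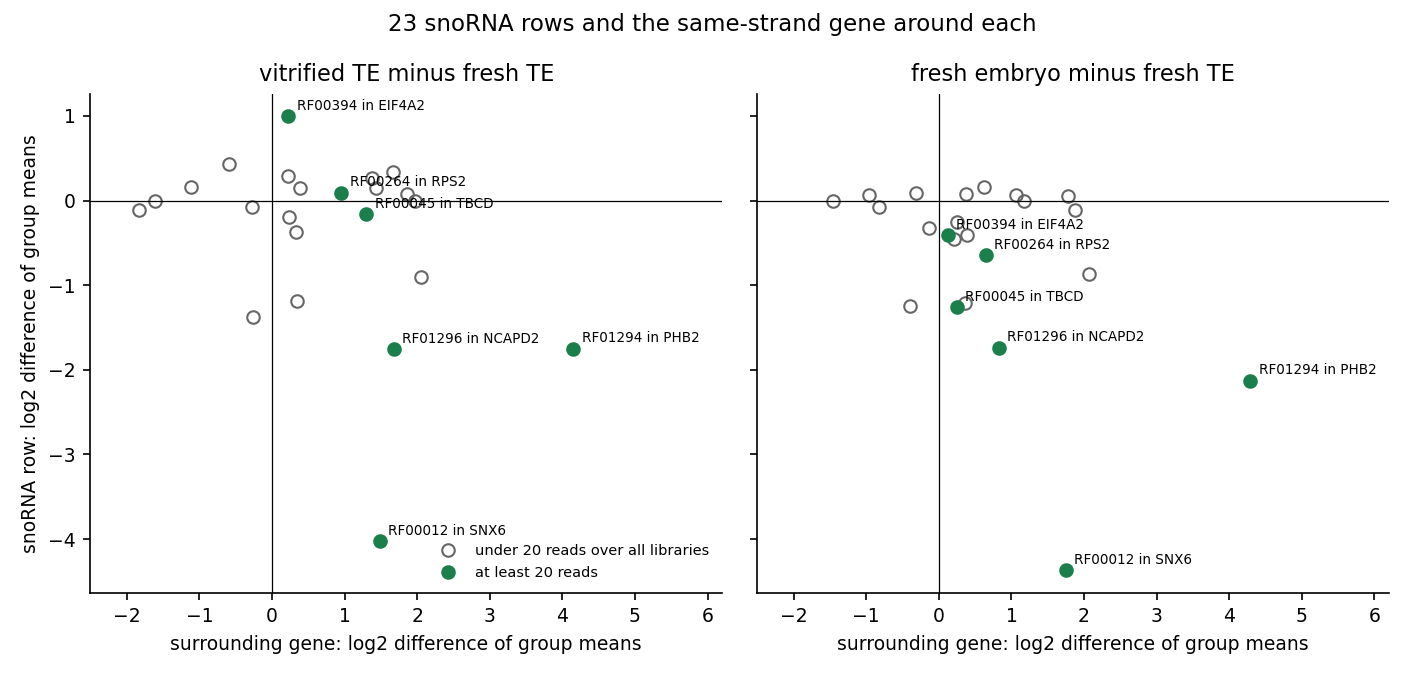
Log2 difference of group means on the log2(RPM + 0.5) scale for 23 snoRNA rows (vertical) and for the same-strand gene around each (horizontal). Filled points are the 6 rows with at least 20 reads over all libraries. In fresh embryo minus fresh TE all 6 lie right of and below 0, and in vitrified minus fresh TE 4 of the 6 do.

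The 2 rows named above through their RefSeq neighbours, from the larger number with such a link, had few reads. RF00024, at the place of TERC, had 0.185 to 1.13 RPM in vitrified TE with a median of 0.365, against 1.33, 0.493, 0.969, 0.341 and 0.745 RPM in fresh TE. RF00030, at the place of RMRP, had 0 to 0.940 RPM in vitrified TE with a median of 0.363, against 1.33, 2.96, 1.94, 0.341 and 0 RPM in fresh TE. Each had 40 reads over all libraries, the groups overlapped, and neither was tested. A sample without a read is held to at most 3 reads, or 0.344 to 1.48 RPM depending on the library, and this limit covers counting error only.

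Transcripts of genes for proteins that bind small RNAs were described from lists. No protein was measured, and in these lists a protein stands for its transcript. Of 160 genes in 17 lists, 156 were found and 153 tested. In vitrified against fresh TE, 85 rose, 17 fell and 51 did not pass, with a median log2 fold change of 0.57 against 0.62 over all tested genes. The split moved with the scaling, to 56 that rose and 46 that fell with median-ratio factors, 60 and 43 with quantile normalization, 125 and 6 on the RPKM scale and 129 and 6 on the whole-library scale. Over all tested genes 51.8% rose and 15.5% fell. In fresh embryo against fresh TE, 81 rose, 20 fell and 52 did not pass, where 44.6% of all tested genes rose and 16.5% fell. Here the split was 60 and 43 with median-ratio factors, 55 and 43 with quantile normalization, 115 and 1 on the RPKM scale and 117 and 3 on the whole-library scale.

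Among the snoRNA proteins, 4 of 5 C/D proteins rose and none fell in vitrified TE, which turned to 1 and 1 under median-ratio factors. RRP9, which binds a snoRNA needed for ribosomal RNA processing, rose by 2.17 (SE 0.22, adjusted p = 3.4e-09), and fibrillarin (FBL), the methyltransferase, rose by 0.43 (SE 0.11, adjusted p = 0.0017), although its sign turned to -0.05 under median-ratio factors. Of 7 H/ACA proteins, 5 rose and none fell, or 4 and 1 under median-ratio factors and quantile normalization. DKC1, the pseudouridine synthase dyskerin, rose by 1.20 (SE 0.18, adjusted p = 1.7e-06), NHP2 by 1.35 (SE 0.16, adjusted p = 2.6e-08) and NOP10 by 0.93 (SE 0.12, adjusted p = 8.9e-08).

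The rings that sit on spliceosomal snRNAs went both ways. Of 7 tested Sm proteins, 2 rose and 3 fell, a split that turned to 4 and 3 under quantile normalization and to 4 and 2 on the RPKM and whole-library scales. SNRPB rose by 2.75 (SE 0.20, adjusted p = 6.1e-12), and SNRPG fell by 1.68 (SE 0.13, adjusted p = 1.2e-11), to 492 ± 37.4 RPM in vitrified TE against 1574 ± 135 RPM in fresh TE. Of 7 Lsm proteins, which bind U6 snRNA, 1 rose and 4 fell with a median of -1.001, which turned to 3 and 3 on the RPKM and whole-library scales. LSM3 fell by 1.502 (SE 0.13, adjusted p = 8.4e-11), LSM8 by 1.55 (SE 0.13, adjusted p = 1.2e-10) and LSM6 by 1.80 (SE 0.19, adjusted p = 5.2e-09), and these 3 kept their sign under all 4 other scalings.

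Proteins of the single particles differed in their counts. For U4, U5 and U6, 9 of 10 rose and 1 fell, or 6 and 1 under median-ratio factors and quantile normalization. Among those that rose were the central splicing factor PRPF8 by 1.87 (SE 0.14, adjusted p = 8.8e-12) and the helicase SNRNP200 by 2.002 (SE 0.17, adjusted p = 1.1e-10). For U1, 2 of 3 rose, SNRPA by 2.77 (SE 0.42, adjusted p = 1.1e-05) and SNRPC by 1.16 (SE 0.19, adjusted p = 4.6e-06). For U2, 3 of 11 rose and 2 fell, a split that turned to 2 and 5 under median-ratio factors and 3 and 4 under quantile normalization. SNRPB2 fell by 1.87 (SE 0.15, adjusted p = 2.9e-11) and SF3B4 rose by 3.76 (SE 0.29, adjusted p = 1.5e-10). For the minor spliceosome, 3 of 7 rose and none fell, or 2 and 1 under median-ratio factors and 3 and 2 under quantile normalization. RNPC3 rose by 1.67 (SE 0.17, adjusted p = 2.5e-09).

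Genes for making and degrading small RNAs were counted in the same way, beside the 51.8% of all tested genes that rose. Of 20 tested genes for snRNA transcription and 3' processing, 14 rose and 1 fell, which turned to 6 and 6 under quantile normalization, and the Integrator subunit INTS6 rose by 3.02 (SE 0.20, adjusted p = 5.3e-13). Of 17 genes for snRNP assembly, 10 rose and none fell, or 6 and 5 under quantile normalization, GEMIN4 of the SMN complex by 3.05 (SE 0.20, adjusted p = 4.7e-13). Of 20 RNA polymerase III genes, 11 rose and 2 fell, or 7 and 5 under quantile normalization, the catalytic subunit POLR3A by 2.12 (SE 0.18, adjusted p = 6.0e-11). Of 15 genes of the nuclear exosome and decay, 10 rose and 1 fell, or 5 and 2 under median-ratio factors, EXOSC5 by 4.55 (SE 0.35, adjusted p = 8.1e-11).

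Lists for other structured RNAs were small. For the 7SK particle, which holds the elongation factor P-TEFb inactive, 4 of 7 rose and none fell, turning to 2 and 2 under median-ratio factors and 2 and 3 under quantile normalization. Its inhibitor HEXIM1 rose by 1.96 (SE 0.16, adjusted p = 4.8e-11). For the signal recognition particle, which brings nascent secreted proteins to the endoplasmic reticulum, 2 of 6 rose and 1 fell, turning to 1 and 4 under median-ratio factors and to 1 and 2 under quantile normalization. SRP54 rose by 1.41 (SE 0.23, adjusted p = 6.8e-06) and SRP14 fell by 0.81 (SE 0.22, adjusted p = 0.0026). For RNase P and MRP, 5 of 8 tested genes rose and none fell, POP1 by 1.31 (SE 0.22, adjusted p = 9.9e-06). The split turned to 3 and 2 under median-ratio factors and to 4 and 2 under quantile normalization. Of the Ro and La proteins, SSB, the La protein that protects new polymerase III transcripts, rose by 0.66 (SE 0.13, adjusted p = 5.2e-05), 1 of 2, though no member of that list passed under median-ratio factors. Both tested vault proteins fell, MVP by 1.11 (SE 0.37, adjusted p = 0.011) and TEP1 by 0.59 (SE 0.23, adjusted p = 0.028), and neither passed on the RPKM or whole-library scale.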

How the data were processed

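RNA of 20 samples had been sequenced by the submitters. Quality control with FastQC, alignment software STAR 2.5.3a, the Partek package and the build UMD3.1 are named in the submitters' processing notes. The sources used here do not state the counting rules or how reads mapping to several copies were treated. The values the authors deposited behaved as RPKM over the genomic span, introns included, plus an offset of 0.01. This was read from the values. Dividing by each library's step gave whole reads (within 0.1) for 94.5 to 95.8% of values under 1000 reads whose digits could tell, and for 98.1 to 100% of those of the small RNA rows. Depth was 6.01 to 14.5 M reads a library.

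Reads were rounded and scaled to 1000000 listed-gene reads (RPM). Genes with at least 10 reads in at least 2 libraries (10599 of 15542) were tested with limma 3.58.1 (R 4.3.3, statmod 1.5.0; eBayes with trend and robust fitting) on log2(RPM + 0.5), with a mean per group and a shared spread. P-values were adjusted by Benjamini-Hochberg over all tested genes at a threshold of 0.05. The limma fit was also run on simulated reads. Those had the same dispersion for all genes and no shift in library make-up, so that run cannot speak to the small RNA calls. Samples were not paired by replicate number. Deviations of samples with the same number correlated at -0.187 to 0.290. Both extremes come from the 2 vitrified embryos set against vitrified TE, so these values cannot settle whether numbers pair samples. Rows and lists were chosen with earlier results of these data known. Named rows were the 12 with the highest mean, the top 3 per biotype, the largest fold changes past the threshold and the 3 least changed of the 20 highest. From each protein list up to 3 genes with the smallest p were taken. The columns of all 20 samples were used. Levels per row are reads, not per length. The alternatives were other scalings (RPKM + 1, median-ratio factors, quantile, all library reads), pseudocounts of 0.1 and 2, no filter, voom and array weights, the replicate block, near copies averaged and each library left out.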

Additional observations from a re-analysis of the deposited data

Results flagged for a closer look

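Fresh embryo sample 2 stood apart from its group in snRNA reads. Its summed snRNA reads were 10.3 RPM, against 0.594 to 3.42 RPM in the other 5 fresh embryos, and RF00004 was at 3.42 RPM in it, against 0 to 0.802 RPM in the others. Fresh embryo sample 4 had 2.28 RPM of RF00401, against 0.485 to 1.04 RPM in the others. Of 51 groups of values examined, these 3 had a library that far from the rest, and chance gives about 1 in 20.

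The interaction test called 7 rows for which the difference of vitrified from fresh samples was not the same in whole embryo and TE. RF00096 is among them and entered the fit through fresh TE alone. The count was 4 without vitrified embryo sample 1 and 3 without sample 2. Library make-up of fresh TE differed from that of the other groups and cannot be told apart from vitrification here. The difference of effects, embryo minus TE on the log2 scale, was 3.39 for RF00003, 3.78 for RF00004, 2.17 for RF00009, 2.83 for RF00012, 1.75 for RF00017, 1.94 for RF00096 and 2.55 for RF00100.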

How the results depend on the processing

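On the deposited RPKM scale the calls numbered 4 in vitrified against fresh TE, 5 in fresh embryo against fresh TE and 2 for the difference of effects, against 10, 12 and 7 in the report. Wide rows have RPKM near the offset, but the narrow rows RF00231, RF00045, RF00009 and RF00096 lost calls there too, and the cause was not tested. Without the filter on reads, which lets all 79 rows in, they numbered 30, 33 and 13. Quantile normalization called 1 row in vitrified against fresh embryos, and the cause was not tested. Leaving out 1 library at a time gave 9 to 10, 11 to 12 and 3 to 7 calls, and 0 to 0 for both other comparisons. Averaging the near copies in fresh TE gave 9, 10 and 6 calls, and a pseudocount of 0.1 gave 8, 11 and 6. The whole-library scale, a setting chosen after seeing the data, gave 9, 10 and 5. With the replicate block the calls were 9, 11 and 6, and 0 for both other comparisons. The samples share only a number.

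The ratio for all rows on the whole-library scale was 0.3345 in vitrified over fresh TE and 0.2412 in fresh embryo over fresh TE. On that scale, snoRNA had 0.1397 in fresh embryo over fresh TE, and misc_RNA 0.3828 in vitrified over fresh TE and 0.2958 in fresh embryo over fresh TE. On the listed-gene scale without the row with the most reads, all rows had 0.0905 in fresh embryo over fresh TE, snoRNA 0.4929 in vitrified over fresh TE and 0.2123 in fresh embryo over fresh TE, and misc_RNA 0.1422 and 0.0998 in the same order. Leaving out 1 library gave 0.1927 to 0.2321 for all rows in vitrified over fresh TE, 0.1374 to 0.1655 in fresh embryo over fresh TE, 0.6462 to 1.2008 in vitrified over fresh embryo and 0.4607 to 0.8561 in vitrified embryo over vitrified TE.

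In vitrified against fresh TE, RF00045 turned to 0.3483 on the RPKM scale, 0.0853 with near copies averaged and 0.2659 on the whole-library scale, and ranged from -0.4911 to 0.0765 with 1 library left out. RF00432 turned to 0.1579 on the RPKM scale and 0.1306 on the whole-library scale. Elsewhere 62 values for single rows lost their call, 8 gained one and 1163 did neither. No rows share a name, so summing such rows was void, and the difference of effects needs all 4 groups. Most rows had too few reads for a test, and 2 vitrified embryos leave wide intervals.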
